A study of Mus musculus with 6 samples.

Results

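The clustered protocadherins were examined in the renal cortex of mice on one-colour Agilent arrays. Members were chosen by gene name, as every probe named for a gene of the alpha, beta or gamma cluster in the scanner file of labelled db/db replicate 1, and the family was selected with its differences between the groups already known. The rule found 40 probes for 36 genes, of 37074 named genes and intervals on the array. All 40 probes lie on chromosome 18 of mm9, over 887 kb. The alpha cluster had 8 probes for 7 of its 14 RefSeq genes (37114742 to 37347294), the beta cluster 23 probes for 22 of 22 (37427011 to 37680728), and the gamma cluster 9 probes for 7 of 22 (37823813 to 38001437). The other RefSeq genes of the alpha and gamma clusters had no probe of their own name.

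Clustered protocadherins are cell-surface adhesion proteins of the cadherin superfamily, known best from the nervous system. In the alpha and gamma clusters, each of many variable exons has its own promoter and is spliced to constant exons at the end of the cluster, so that every transcript of a cluster carries the same 3′ end. The beta genes have no constant exons, and each is a gene of its own. In neurons, a few of the variable exons are chosen in each cell by contacts between promoters and enhancers that CTCF and cohesin form, and matching sets of proteins on facing membranes let a neuron recognise its own branches.

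Expression was measured in 6 male mice aged 16 weeks, 1 array each, and the GEO labels give 3 as db/m and 3 as db/db. By the paper's protocol, mice of every group were gavaged daily for 8 weeks. The db/m mice and the non-treated db/db mice received the vehicle, sodium carboxymethylcellulose. db/db mice lack a working leptin receptor and become obese and diabetic, and db/m mice carry 1 copy of the mutation and do not. The source names call the groups control and model, whereas the paper describes the arrays as db/db mice treated for 8 weeks with Huangqi decoction (HQD), a herbal extract, against non-treated db/db mice, and the dose of the arrayed mice is not given in its text. This difference cannot be settled from the labels, so each group is named as labelled, and every difference is the mean log2 intensity of labelled db/m minus that of labelled db/db. Of 6 probes for Lepr, the leptin receptor gene, the 1 tested differed by 0.41 (SE 0.29) with overlapping groups. It checks nothing, since the db mutation alters splicing and leaves a transcript.

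Whole cortex was used, so that fewer cells of a type and less RNA per cell cannot be told apart. Over all probes, 51.6% to 59.0% were well above background on an array, which is the scanner software's own call. The arrays lay on 3 slides. Only slide 1 held both groups, with labelled db/m array 1 beside labelled db/db array 3, and it alone allows a comparison within a slide. With the slide as a block, each difference is therefore that of labelled db/m array 1 minus labelled db/db array 3. No probe of 29889 passed an adjusted P of 0.05 by limma. None did by the methods' t-test (ANOVA on the same values) either. At an unadjusted P under 0.05 limma gave 5294, and the number of arrays limits the precision.

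Most members gave little or no signal in the cortex. Of the 40 probes, 6 (15%) were well above background on all 6 arrays, against 49.3% of all probes. Another 13 were above it on some arrays, and 21 (52.5%) on none, against 35.6% of all probes. These 6 probes belong to Pcdha8, Pcdhb12, Pcdhb14, Pcdhb21 and, with both of its probes, Pcdhga9. A further 12 genes had a probe above background on at least 1 array but none on all 6, and for 19 genes no probe was above background anywhere. For 8 probes (20%, against 16% of all probes) the software had put a surrogate, a low value that stands in for a signal at or below background, on every array. They read Pcdha11, Pcdha12, Pcdhb5, Pcdhb8, Pcdhb9, Pcdhb11, Pcdhb13 and Pcdhga12. Such values say only that these transcripts were not measured above background.

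The number of members above background differed more within a group than between the groups. Of 40 probes, 12, 8 and 16 were above background on labelled db/m arrays 1, 2 and 3, and 10, 9 and 15 on labelled db/db arrays 1, 2 and 3. The dimmest intensity above background was 63.6 to 66.2 on the 3 arrays with 8 to 10 such members, and 46.4 to 50.5 on the 3 arrays with 12 to 16. These intensities are scaled so that the 75th percentile of each array equals 921.

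**Figure D1:**
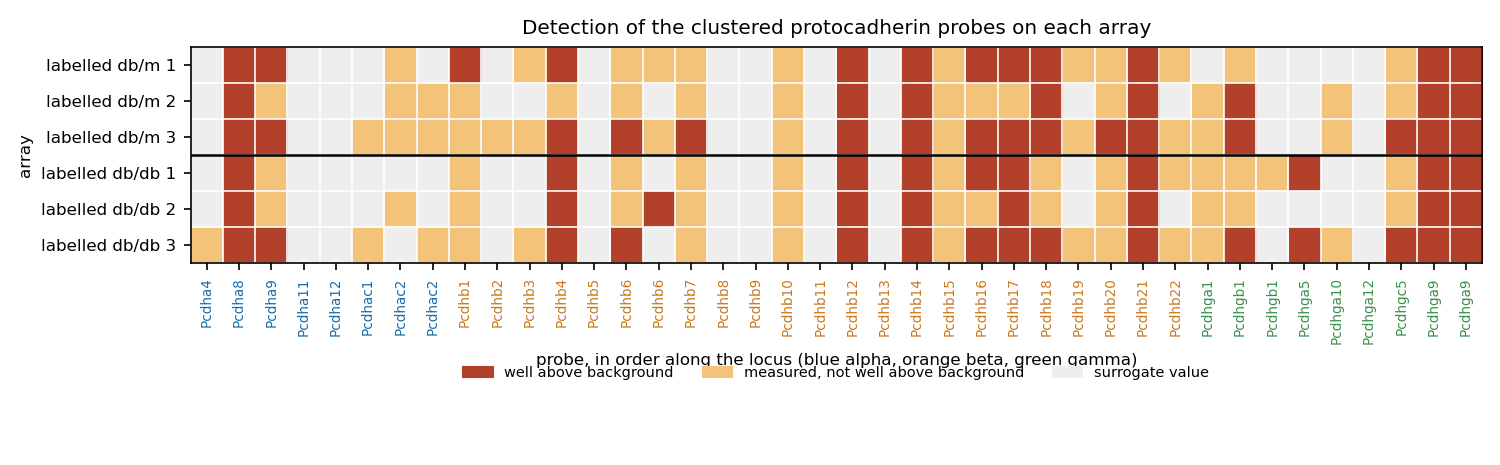
Each column is 1 of the 40 member probes in order along the locus, and each row is 1 array. Red cells were well above background, yellow cells were measured but not well above it, and grey cells hold a surrogate value. Most columns hold no red cell, and 6 columns are red on all 6 arrays.

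Position within a cluster set what a probe could read. Of the 40 probes, 4 were placed at the shared 3′ ends by the transcripts that the files list for them. The other 36 were taken to lie in the variable exon or the gene of the member in their name, and no exon map was used. For the Pcdhga12 probe and for 1 probe each of Pcdhb6 and Pcdhgb1, no listed transcript matched a RefSeq member. The constant end of the gamma cluster is read by both Pcdhga9 probes, for which the files list transcripts of Pcdhga9, Pcdhga1, Pcdhga5 and Pcdhga6. The constant end of the alpha cluster is read by both Pcdhac2 probes, for which they list Pcdhac2, Pcdhac1, Pcdha4 and Pcdha9. The files list at most 4 transcripts a probe, so these lists are not complete, and neither pair can be assigned to the gene in its name. Of the probes in variable exons, that of Pcdha8 also matches Pcdha7, Gm37013 and Gm38667, and that of Pcdha4 also matches Gm37013. Member probes were compared with each other, and the longest run that any pair shared was 12 of 60 bases. They were not compared with the transcripts of other members.

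Both gamma constant-end probes were above background on every array, and both alpha constant-end probes on none. One gamma probe, at 38001378 to 38001437, was bright throughout. Its scaled intensities were 5449, 5056 and 7456 on the labelled db/m arrays and 5589, 5491 and 5041 on the labelled db/db arrays. The groups overlapped, labelled db/m replicate 3 was highest, and the difference was 0.14 on the log2 scale. The other gamma probe lies 1.65 kb upstream, at 37999725 to 37999784, which is 20.5 kb beyond the last probe in a gamma variable exon. It was dimmer and far more variable, with 169, 302 and 886 on the labelled db/m arrays and 134, 76.2 and 105 on the labelled db/db arrays. Here the groups did not overlap, and the labelled db/m mean stood 3.49-fold (1.80 log2) above the other.

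The difference of this dimmer gamma probe rested in part on a single array. Its log2 SD over the 3 arrays was 1.21 in labelled db/m and 0.41 in labelled db/db. Without labelled db/m replicate 3 the difference was 1.14, and between both arrays of slide 1 it was 0.69. The bright probe, which lies in the same constant end, differed by 0.11 on slide 1. Both probes were highest on labelled db/m replicate 3, but on the other arrays they did not follow each other. The bright probe has a neighbour on the opposite strand, Diaph1, a gene of actin assembly, whose nearest probe starts 1.84 kb further on. The Diaph1 values ran from 8863 to 9965 over the 6 arrays, with a difference of -0.08. Whether transcripts other than those of the gamma cluster contribute to either gamma probe was not tested.

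The alpha constant end gave no measurable difference. One Pcdhac2 probe had 14.3, 60.0 and 26.9 on the labelled db/m arrays and 14.4, 28.4 and 11.3 on the labelled db/db arrays, and the other 11.1, 15.6 and 43.7 against 13.9, 14.4 and 11.8. Their differences of 0.77 and 0.56 lay wholly below the background threshold, where intensities have no reliable order. With dim values raised to the lowest intensity above background on their array, both differences became -0.12, the value that the floors alone give.

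Among the probes of alpha variable exons, that of Pcdha8 was the only one above background on all arrays. It had 156, 294 and 224 on the labelled db/m arrays and 111, 135 and 238 on the labelled db/db arrays, with a difference of 0.51. The groups overlapped, since labelled db/db replicate 3 was above 2 of the labelled db/m arrays, and on slide 1 the direction turned to -0.61. Both alpha constant-end probes were above background on no array. Whether the signal of the Pcdha8 probe comes from transcripts that carry the constant end was not tested. Pcdha9 was above background on 3 arrays, 2 of them labelled db/m, with 49.3 to 64.1 over all 6 arrays. The probes of Pcdha4, Pcdha11, Pcdha12 and Pcdhac1 were above background on no array.

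The beta genes gave most of the detected members, 12 of 23 probes on at least 1 array. Pcdhb12 was above background on all arrays, with 415, 507 and 432 on the labelled db/m arrays and 442, 439 and 567 on the labelled db/db arrays, and a difference of -0.09. Pcdhb21 had 129, 133 and 163 against 153, 127 and 132, with a difference of 0.04. For both genes the groups overlapped and the difference was smaller than the SD over the arrays of either group, though on slide 1 that of Pcdhb12 was -0.45.

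Pcdhb14 was the beta gene whose groups did not overlap, by a narrow margin. It had 93.0, 89.5 and 256 on the labelled db/m arrays and 89.4, 88.9 and 78.7 on the labelled db/db arrays. The difference of 0.59 came from labelled db/m replicate 3, the same array that was highest for both gamma constant-end probes. Without that array it was 0.09.

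Pcdhb4, Pcdhb17 and Pcdhb18 reached the background threshold on all arrays of 1 group. Pcdhb4 was above background on 5 arrays and had 51.1 to 78.7, with a difference of -0.20. Pcdhb17 was above it on 5 arrays and had 53.4 to 114, with a difference of -0.02. Pcdhb18 was above it on 4 arrays and had 57.9 to 108, with a difference of 0.27 that turned to -0.12 on slide 1. In each of them the groups overlapped. Pcdhb16 followed with 4 arrays, 1 Pcdhb6 probe with 2, and the other Pcdhb6 probe, Pcdhb1, Pcdhb7 and Pcdhb20 with 1 each.

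Of the gamma variable exons, Pcdhgb1 was above background on 3 arrays with 1 of its 2 probes, and Pcdhgc5 and Pcdhga5 on 2. Pcdhga5 is described because it had the lowest difference of all members, and it was chosen after its values were seen. It held 11.1, 14.6 and 10.4 on the labelled db/m arrays, all surrogates, and 147, 14.3 and 117 on the labelled db/db arrays. Labelled db/db replicates 1 and 3 were well above background and replicate 2 held a surrogate. The measured difference of -2.40 therefore depends on what stands in for no signal, and no firm bound can be given. Labelled db/db was 1.17-fold higher with the labelled db/m arrays at their lowest intensities above background and labelled db/db replicate 2 at its surrogate. A lower true signal on that array would reduce this value. With that array at its own lowest intensity too, the difference was -0.95. The groups overlapped.

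The same holds for 1 Pcdhb6 probe, also chosen after its values were seen. It had 19.3, 15.5 and 11.1 on the labelled db/m arrays and 14.0, 359 and 10.9 on the labelled db/db arrays. Its difference of -1.35 was made by labelled db/db replicate 2 alone and became 0.27 without it. The second Pcdhb6 probe had 50.9 on that array, within its range of 37.0 to 62.8, and its difference was -0.28.

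**Figure D2:**
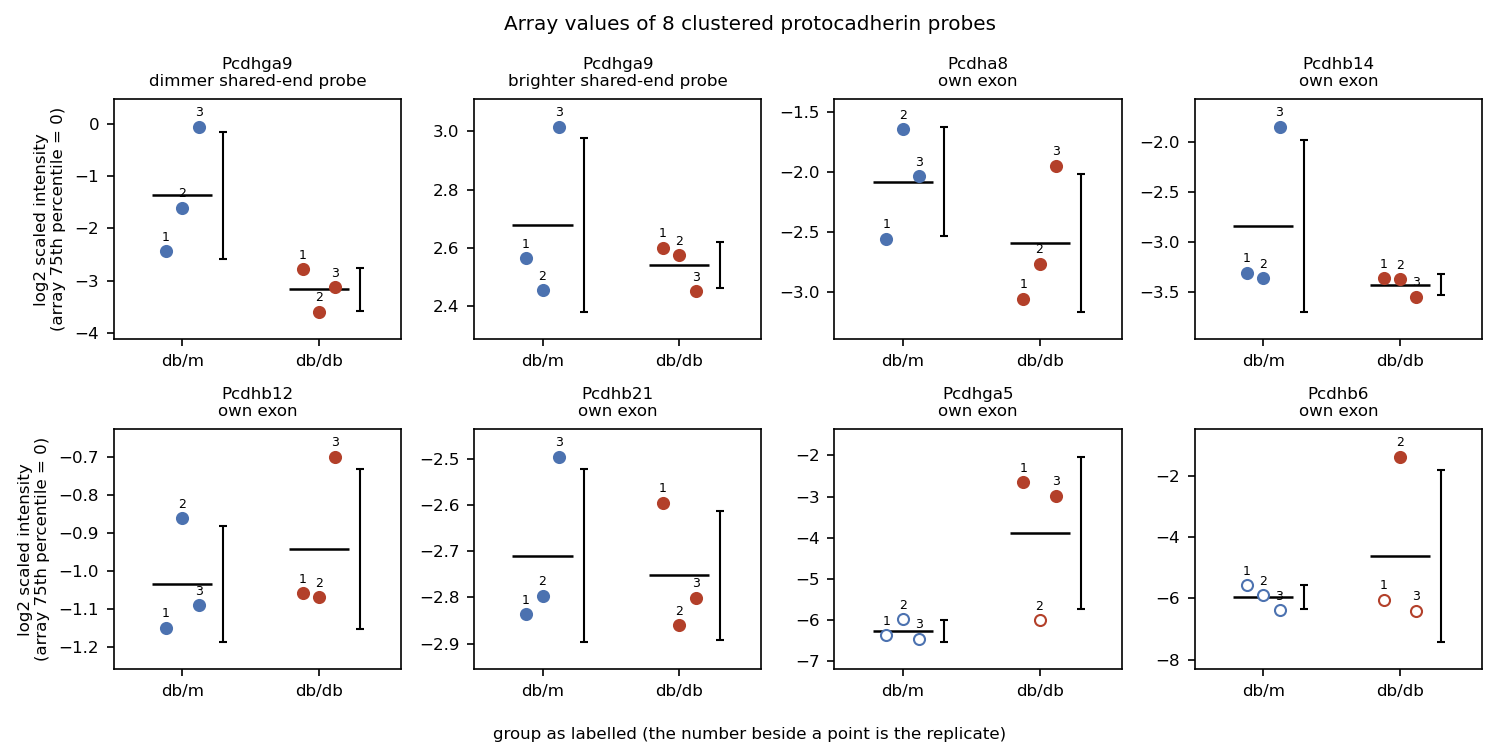
Log2 scaled intensity of 8 member probes on each array, with 0 at the array's 75th percentile. Filled points were well above background, open points were not, the number is the replicate, the line is the group mean and the bar its SD over 3 arrays. The dimmer Pcdhga9 probe separates the groups, while in Pcdhga5 and Pcdhb6 the labelled db/db mean rests on 2 and 1 arrays.

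The median difference of the 40 probes was -0.09, beside -0.08 over all probes. Over the 19 members with no surrogate on any array it was 0.04, and 10 of these stood above 0. Probes that held surrogates on all 6 arrays had a median of -0.11 by construction, and the 8 members among them -0.10, because the floor differed between the arrays. Above 0 stood 17 of 40 members (42.5%), beside 41.3% of all probes. By cluster the medians were 0.06 for alpha, -0.09 for beta and -0.09 for gamma. These values describe the contrast with which the family was selected, and no test was made of them.

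Members that moved 2-fold were counted beside all probes. With no filter on dim probes, 1 of 40 members was at least 2-fold higher in labelled db/m, beside 1613 of 56470 probes (2.86%). It was the dimmer gamma constant-end probe. At least 2-fold lower were 2 of 40, Pcdhga5 and Pcdhb6, beside 844 of 56470 probes (1.49%). Counts of 1 and 2 are too small to place the members above or below all probes. The groups did not overlap for 2 members (5%), the same gamma probe and Pcdhb14, beside 15.4%. The study's screen asks for a 2-fold change with an unadjusted P under 0.05. Of the members, 9 were above background on all arrays of a group and could enter it (22.5%, against 52.9% of all probes), and 1 passed, again the dimmer gamma probe, beside 0.960% of tested probes. With the slide as a block, without labelled db/db replicate 2, or by the methods' t-test, it did not pass. The other 8 differed by -0.20 to 0.59.

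**Figure D3:**
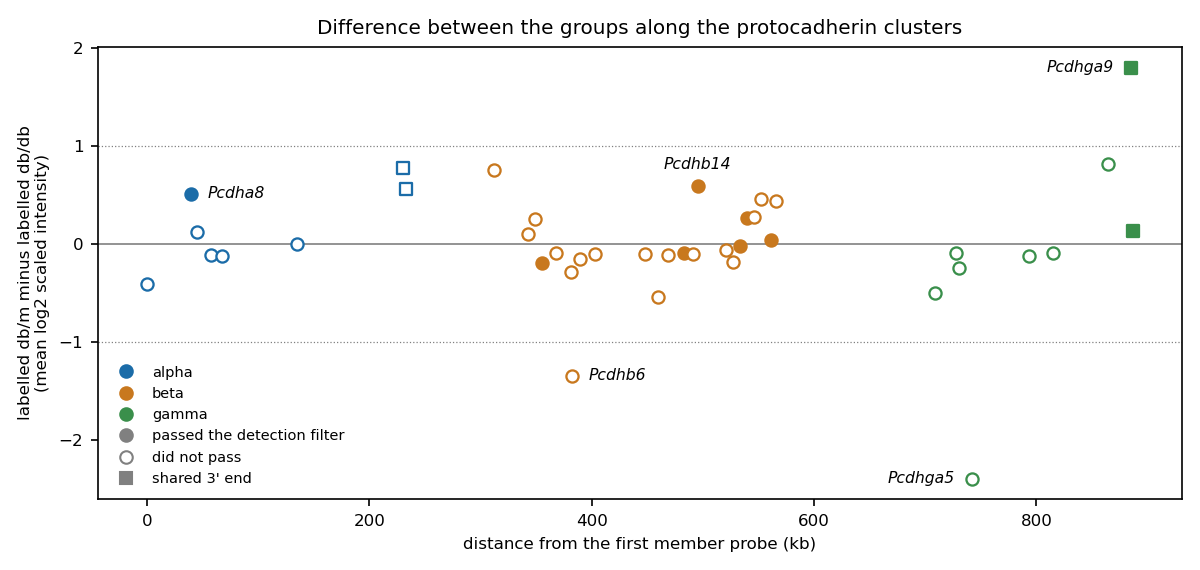
Difference of each member probe, labelled db/m minus labelled db/db on the log2 scale, against its distance in kb from the first member probe. Filled symbols entered the screen, squares lie at a shared 3′ end, and dotted lines mark 2-fold. Most points lie within the dotted lines, and both squares at the right end, 1.65 kb apart, differ by 1.80 and 0.14.

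Pairs of the members above background on all arrays varied together to unlike degrees within the groups. Deviations from the group mean on 6 arrays were used, which leave few degrees of freedom. Over them, the median Pearson r between the 6 members that were above background throughout was 0.21. It was 0.27 among 6 other such probes taken in file order, a single set that gives no background level. The pairs of members ran from -0.48 for the bright gamma probe and Pcdhb12 to 0.98 for the bright gamma probe and Pcdhb14. Both gamma constant-end probes, Pcdhb14 and Pcdhb21, set together after their values were seen, had an r of 0.80 to 0.98 in all 6 of their pairs, with 0.80 between both gamma probes. All 4 of these probes were highest on labelled db/m replicate 3, so that this 1 array weighs on each r. Pcdhb12 and Pcdha8 had 0.94 with each other, and -0.48 to 0.21 with the other 4. On labelled db/m replicate 3, 5 of the 6 stood above the group mean, by 0.47 on average, and on labelled db/m replicate 1 none did, at -0.40.

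The remaining genes of the pathway were taken from lists, 85 genes in all, of which 72 were tested. By limma, 5 of the 72 (6.94%) had an unadjusted P under 0.05, beside 17.7% of all tested probes, and none had an adjusted P under 0.05. Of the 5, 3 were higher and 2 lower in labelled db/m. Median centring gave 6 companion genes, 1 higher and 5 lower, and quantile normalization 5, 4 higher and 1 lower. Of the non-clustered protocadherins and large cadherins 12 of 21 were tested, and 0 of 12 had an unadjusted P under 0.05. They included Pcdh1 with a difference of -0.40, Pcdh17 with -0.18, Pcdh12, an endothelial member, with -0.16, and Pcdh9 with 0.62. Pcdh9 had 181, 258 and 301 on the labelled db/m arrays and 114, 121 and 282 on the labelled db/db arrays, so its groups overlapped.

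Regulators of promoter choice in the clusters were all measured, and 0 of 19 had an unadjusted P under 0.05. Ctcf, which anchors the promoter loops, differed by -0.04, the cohesin subunit Rad21 by -0.10, and Smchd1, a silencer of the clusters, by 0.20. Their list median was 0.01, beside -0.04 over all tested probes. Of 13 tested kinases and adaptors that act with protocadherins, 2 had an unadjusted P under 0.05 by limma, both lower in labelled db/m. Among them was the GTPase Rac1 by -0.29, with an adjusted P of 0.282 by limma. Nckap1 differed by 0.28 with its brightest probe, but 1 other probe of it had an unadjusted P under 0.05 by limma in the opposite direction. Among the classical cadherins and catenins Cdh2, N-cadherin, was higher by 0.86 (SE 0.23, adjusted P = 0.241 by limma) and the other 12 tested had no unadjusted P under 0.05. Cdh2 had 309, 189 and 313 on the labelled db/m arrays and 163, 121 and 156 on the labelled db/db arrays, without overlap.

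Of the genes beside or between the clusters 15 were tested, and 2 had an unadjusted P under 0.05. Cd14, the monocyte coreceptor, was higher by 0.51 and Dnd1, an RNA-binding protein of germ cells, by 0.44, with adjusted P of 0.251 and 0.27 by limma. The P was no longer under 0.05 for Dnd1 in 12 of 17 alternatives, quantile normalization among them, and for Cd14 in 7 of 17, the slide block among them. Taf7, a subunit of the general transcription machinery between the beta and gamma clusters, differed by 0.25, and Hdac3, beyond the gamma cluster, by -0.18.

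Markers of other cells were set beside these values, since protocadherins are known from neurons. Of 17 neuronal markers listed 12 were tested, and 7 of the 12 stood above 0. By limma 2 of them (16.7%) had an unadjusted P under 0.05, beside 17.7% of all tested probes. Both were higher in labelled db/m, Snap25 by 0.68 and the RNA-binding protein Elavl3 by 1.25 (adjusted P = 0.241 and 0.258 by limma). The summed intensity of all 12 was 17460 to 23680 on the labelled db/m arrays and 14230 to 15800 on the others. Snap25 carried this separation: without it the sums were 9202, 7594 and 10850 on the labelled db/m arrays and 7370, 7795 and 8264 on the labelled db/db arrays, which overlap. Syt1, Gap43, Nefh, Prph and Dbh did not reach the threshold for testing. Of the Schwann cell and glial markers 5 of 10 were tested, 0 had an unadjusted P under 0.05, and their summed intensity was 5220 to 7892 against 5636 to 6028.

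All 8 immune markers stood above 0, and 4 (50%) had an unadjusted P under 0.05 by limma. These were Itgam by 0.69, Ptprc by 0.54, Adgre1 by 0.36 and Lyz2 by 0.76. The summed intensities of all 8 were 36630 to 55690 against 26100 to 32900. With the slide as a block Ptprc differed by 0.14, and neither its P nor those of Adgre1 and Lyz2 were under 0.05. Over 17 alternatives that P was lost in 2 for Ptprc, 6 for Adgre1, 7 for Lyz2 and 0 for Itgam. All 3 tested urothelial markers stood above 0, and 1 (33.3%), Krt5 by 1.52, had an unadjusted P under 0.05 by limma. The sum of the 3 was 802 to 4426 against 683 to 1641, highest on labelled db/m replicate 3. The uroplakins Upk1b, Upk2 and Upk3a did not reach the threshold for testing.

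Endothelium (9 genes), podocytes (7) and proximal tubule (8) had no marker with an unadjusted P under 0.05 by limma. Above 0 stood 6 of the 9 endothelial, 1 of the 7 podocyte and 1 of the 8 proximal tubule markers. Their list medians were 0.01, -0.13 and -0.23, beside -0.04 over all tested probes. Among mesangial and vessel wall markers 6 of 12 stood above 0, and 1 (8.33%), Gata3 by 0.38, had an unadjusted P under 0.05 by limma. Like Rac1, Gata3 lost that P in 10 of 17 alternatives. In the distal nephron 3 of 9 stood above 0. The 1 with such a P (11.1%), the thiazide-sensitive carrier Slc12a3, was lower by -0.92. The lowest adjusted P in any of the marker lists was 0.241 by limma. The immune sums did not overlap between the groups, and the urothelial sums did. On labelled db/m arrays 1, 2 and 3 the immune sums were 55690, 36630 and 42480, and the urothelial sums 2307, 802 and 4426. The dimmer gamma probe and Pcdhb14 were highest on labelled db/m replicate 3. The part of any of these cells in the differences of the members was not tested.

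**Figure D4:**
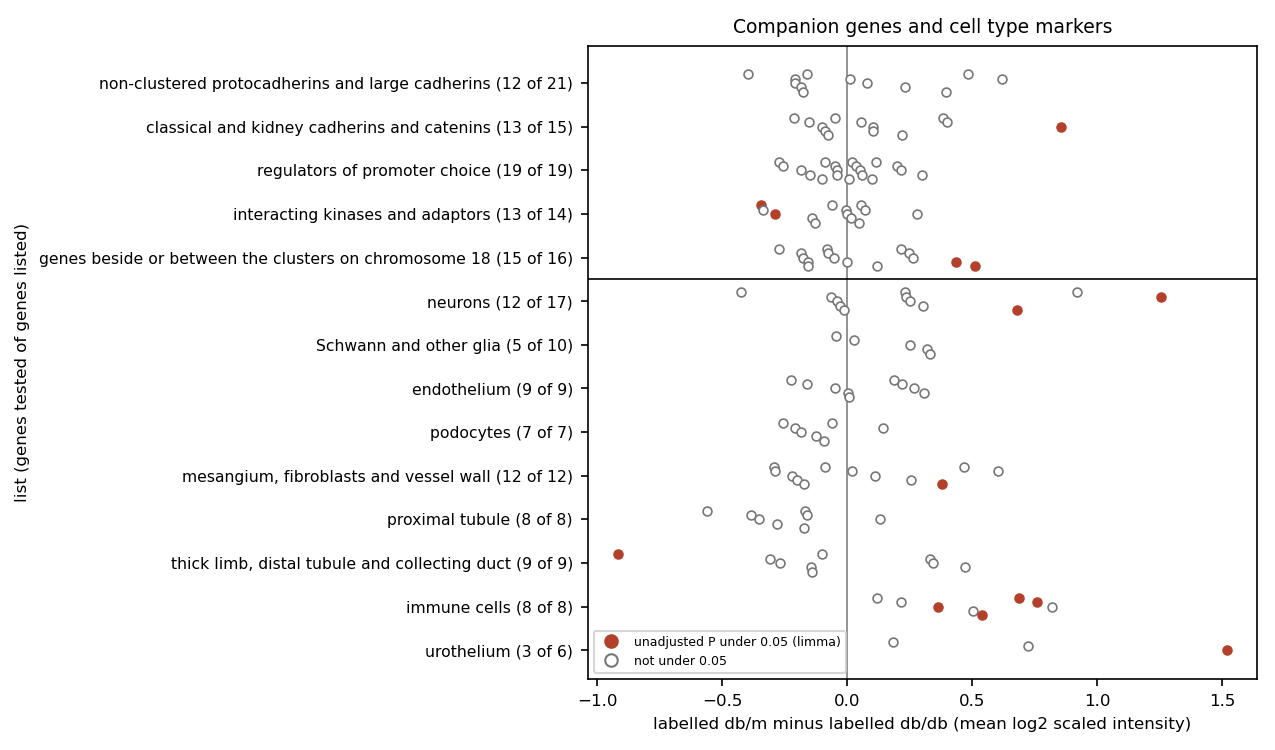
Difference of each tested gene of the companion lists (above the line) and the cell type markers (below it), labelled db/m minus labelled db/db on the log2 scale, with the number tested of those listed. Red points had an unadjusted P under 0.05 by limma. Regulators of promoter choice and non-clustered protocadherins hold no red point, and immune cells hold 4.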

How the data were processed

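Arrays of 6 renal cortex samples were grouped by GEO's labels, 3 per group. The authors deposited scanner files of Agilent Feature Extraction 10.7.1.1 with the intensity of each spot, corrected for background by that software and not normalized between arrays, and a matrix of log2 values, deposited as the authors' own processed data. Probe positions in the files are on mm9. The members and lists were chosen with earlier results of these data known.

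Control spots and 135 of 56605 probes with outlier flags were left out, spots of a probe were averaged, and log2 of the processed intensity minus the 75th percentile of each array was used. Scaled intensities multiply back by the mean percentile. The 29889 probes called well above background on each array of a group, or of both, entered limma 3.58.1 (R 4.3.3; lmFit and eBayes, Benjamini-Hochberg adjustment over all of them), which was tested on simulated data. Of several probes of a listed gene, the brightest tested one was used. All member probes stayed in the descriptions, whether bright or dim. The text names members that passed this filter, and others for their detection or their place at a shared end. Pcdhga5 and 1 Pcdhb6 probe were picked by their values. It names at most 4 genes a list, those with the smallest unadjusted P, beside some named for their role whatever their values. 1 listed gene is not reported here by name. Of the files' accessions, 32994 probes matched RefSeq. Alternatives were quantile normalization, median centring, normexp with an offset of 50, the authors' matrix, a floor for dim values, replicate and slide blocks, other filters and variances, the methods' t-test (ANOVA on both groups) and leaving out each array.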

Additional observations from a re-analysis of the deposited data

How the results depend on the processing

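The median difference of the clustered protocadherins lay between -0.27 (median centring) and 0.04 (slide as a block), beside -0.26 and 0.06 over all probes, and leaving out 1 array gave -0.04 to -0.00. Members at least 2-fold higher were 1, and 1 to 2 without 1 array. Members at least 2-fold lower were 2, but 0 with normexp, 0 with dim values at the floor, 3 with the slide as a block, and 1 to 2 without 1 array. The screen had 1 higher member, but 0 with the slide as a block, 0 by the methods' t-test and 0 to 1 without 1 array. It had 0 lower members, but 1 with no filter on dim probes and 0 to 1 without 1 array, the latter without labelled db/db replicate 2. The Pcdhb6 difference of -1.35 turned to 0.83 when the slide was a block, and ran from -2.25 to 0.27 when 1 array was left out, the latter without labelled db/db replicate 2. That of Pcdhga5 was -0.86 with normexp, and that of the dimmer Pcdhga9 probe 1.14 to 2.34 without 1 array. Companion genes with an unadjusted P under 0.05 by limma were 5, but 3 with no filter and 2 to 9 when 1 array was left out. Of the labelled db/m arrays, leaving out replicate 2 gave 9 and replicate 3 gave 2, and of the labelled db/db arrays, leaving out replicates 1, 2 and 3 gave 3, 2 and 8. Over all probes, limma's adjusted P passed 0.05 for 302 after removal of labelled db/m replicate 2 and for 126 after that of labelled db/db replicate 3. The causes of these changes were not tested, beyond fewer arrays and the value given to dim spots.

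Whether the replicate numbers pair the arrays was not settled. Deviations of same-numbered arrays correlated at 0.35, 0.15 and 0.05, and 4 of 6 arrays correlated best with their own number. With the replicate block the companion count was 10 and the median of the members stayed at -0.09. Signal over background limits the rest: for members that were not above background throughout, no difference can be measured on all arrays.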
